A study of Mus musculus with 15 samples.

Results

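Expression of 10 cartilage genes was measured in mouse embryonic fibroblasts, 3 of them transcription factors of the chondrocyte lineage (Sox9, Sox5, Sox6) and the others components of cartilage matrix (Col2a1, Col9a1, Acan, Hapln1, Matn1, Matn3, Comp). The genes were taken by name: every array probe whose gene name, once brought up to date, was one of the 10 was included, which gave 22 of the 41174 probes and 10 of the 27670 gene names on the array. The rule uses names and no measured level, but the genes were chosen with earlier results of these data known. The fibroblasts, at passage 3, came from C57B6 embryos at 13.5 days and were collected at high confluence after 24 h without serum. Each array set amplified RNA of 1 sample, in the red dye, against a reference of RNA from pooled fibroblasts, in the green dye, so each value is a log2 ratio of sample over reference. The 4 genotypes were wild type, p27 knock-out and stathmin knock-out, with 4 arrays each, and the p27 and stathmin double knock-out, with 3. All groups share the C57B6 background, the embryonic age and the starvation. p27, encoded by Cdkn1b, inhibits cyclin-dependent kinases, and stathmin, encoded by Stmn1, destabilises microtubules. Arrays of 1 genotype are labelled as biological replicates, and the number of embryos behind each culture is not given, so p-values measure the spread between these samples.

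Sox9 is the transcription factor that mesenchymal cells need in order to become chondrocytes, and Sox5 and Sox6 are its partners in switching on cartilage matrix genes. The matrix itself is a network of type II and type IX collagen filled with aggrecan, a large proteoglycan that is tied to hyaluronan by the link protein Hapln1. Matrilins and Comp are adaptor proteins that connect the collagen fibrils with other matrix components, and Comp is also made by tendon and by activated fibroblasts. Fibroblast cultures from whole embryos are mixed mesenchymal populations, and in such bulk RNA fewer cells of a type and less RNA per cell cannot be told apart.

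The labels were checked first. A Stmn1 probe read -2.78 ± 0.15 (SD, n = 4) where stathmin alone was deleted and -2.77 ± 0.08 (n = 3) where both genes were, beside 0.76 ± 0.10 (n = 4) for wild type and 0.94 ± 0.48 (n = 4) for loss of p27. A second Stmn1 probe did not separate the genotypes, with means of -0.10, 0.18, -0.51 and -0.24 in wild type, p27, stathmin and double knock-out. The tested Cdkn1b probe lay at 0.22 ± 0.50 in wild type, -0.08 ± 0.40 in stathmin knock-out, -0.34 ± 0.52 in p27 knock-out and -0.75 ± 0.83 in double knock-out, and its groups overlapped. A further Cdkn1b probe failed the signal filter and was not tested. It read -0.20 to -0.10 on the p27 knock-out arrays and -0.18 to -0.08 on the double knock-out arrays. All wild-type arrays lay higher, at 0.22 to 0.36. Arrays lacking stathmin alone spread from -0.13 to 0.53 and overlapped with each group. The last Cdkn1b probe, also untested, had overlapping groups, with means of -0.08, 0.10, -0.14 and -0.10 in wild type, p27, stathmin and double knock-out. Where these probes lie relative to the deleted parts is not given in the sources used here. All 14 listed fibroblast markers passed the signal filter. Between 59.3 and 78.9% of an array's spots had a red signal well above background, 0.0945 to 0.265% were saturated, and no cartilage probe was among the saturated ones. The arrays lay on 4 slides, slide 2 held no double knock-out, and each genotype kept 1 position on every slide, and the effects of position and of genotype cannot be told apart.

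Of the 22 cartilage probes, 15 probes of 9 genes passed the filter for testing, which asked that 3 or more arrays of 1 genotype have a red signal well above background. The single Matn1 probe was not well above background on any of the 15 arrays, with sample signals of 77.7 to 104 units, and no level is given for it. The other 6 probes left out were further probes of Col2a1, Sox5 (2 probes), Sox6 (2 probes) and Sox9, genes that kept at least 1 tested probe each. Probes of a gene are numbered from the brightest, and levels are compared between samples and never between probes. The aggrecan probe carries the older name Agc1 in the files, and Sox5 probe 1 carries the clone name A730017D01Rik, which the RefSeq table lists as an older symbol of Sox5.

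In no comparison did a cartilage probe pass the test after adjustment over all tested probes. What stood out was the spread between cultures of 1 genotype. Pooled over the 4 genotypes, the SD within a genotype was 0.322 log2 units for the median tested probe. It was 1.62 for Comp, 1.19 for Col2a1 probe 2, 1.17 for Hapln1 probe 1 and 1.13 for Sox6 probe 1, at percentiles 99.4, 98.1, 98 and 97.7 of the tested probes. These were the highest, and other probes spread less. Col2a1 probe 1 had 0.75 (percentile 91.9), and the lowest were Sox5 probe 2 with 0.51 (percentile 78.3) and Sox6 probe 3 with 0.50 (percentile 77.2). Sox5 probe 2 and Sox6 probe 3 were dim, with sample signals of 135 to 334 and 121 to 727 units, and the part of brightness in the spread was not tested. From its lowest to its highest array Comp spanned 32.2-fold and Sox6 probe 1 16.5-fold. Hapln1 probe 1 spanned 24.8-fold over the 14 arrays where it was well above background. Acan spanned 6.2-fold, Sox9 probe 1 5.31-fold and Matn3 4.09-fold, the last over 14 arrays well above background.

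**Figure D1:**
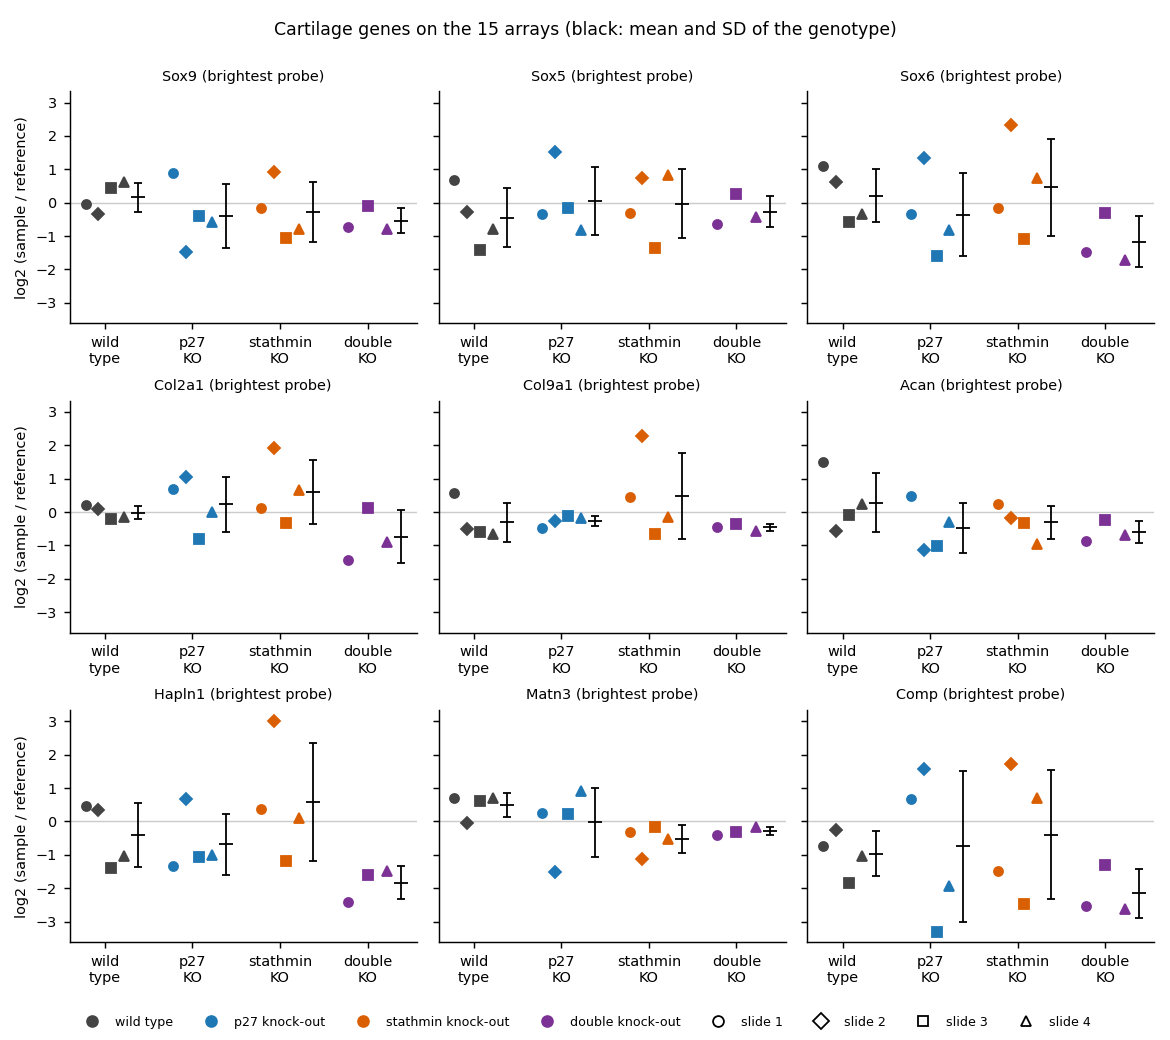
Log2 ratio of sample over reference (vertical axis) of the brightest probe of the 9 tested cartilage genes, by genotype; each point is 1 array, its shape gives the slide, and the black bar gives the mean and SD of the genotype. Stathmin knock-out 2 is the highest point for Sox9, Sox6, Col2a1, Col9a1, Hapln1 and Comp, and the double knock-out points of Hapln1 lie below every other genotype's.

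Array stathmin knock-out 2 stood apart from the other 14. It was the highest of all arrays for 6 of the 9 cartilage genes (brightest probe of each) and for 9 of the 15 tested probes. Over all 17998 tested genes with a value on every array it was the highest for 10.5% and the lowest for 12.3%. Of the 18 tested genes on a list of other cartilage matrix genes it was the highest for 10, among them Col9a2 at 1.96, Matn4 at 2.15, Epyc at 2.79, Mia at 2.28 and Scrg1 at 2.54. The fibroblast markers also had a high mean on that array, 0.94, beside 0.49, 0.14 and 0.78 on the other stathmin knock-out arrays, and the part of such differences in the cartilage values was not tested. The mean of the 9 cartilage genes was 1.29 there, beside -0.14, -0.96 and 0.07 on the other stathmin knock-out arrays. Not every gene was high on stathmin knock-out 2. Of the remaining cartilage genes Sox5 read 0.73, Acan -0.17 and Matn3 -1.12, and on the other matrix list Col11a2 read -0.295. Array p27 knock-out 2, on the same slide, had the next highest Hapln1, Comp and Sox6 values and the lowest Sox9, Matn3 and Acan values. Over all 17998 tested genes that array was the highest for 16.5% and the lowest for 14.8%.

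**Figure D2:**
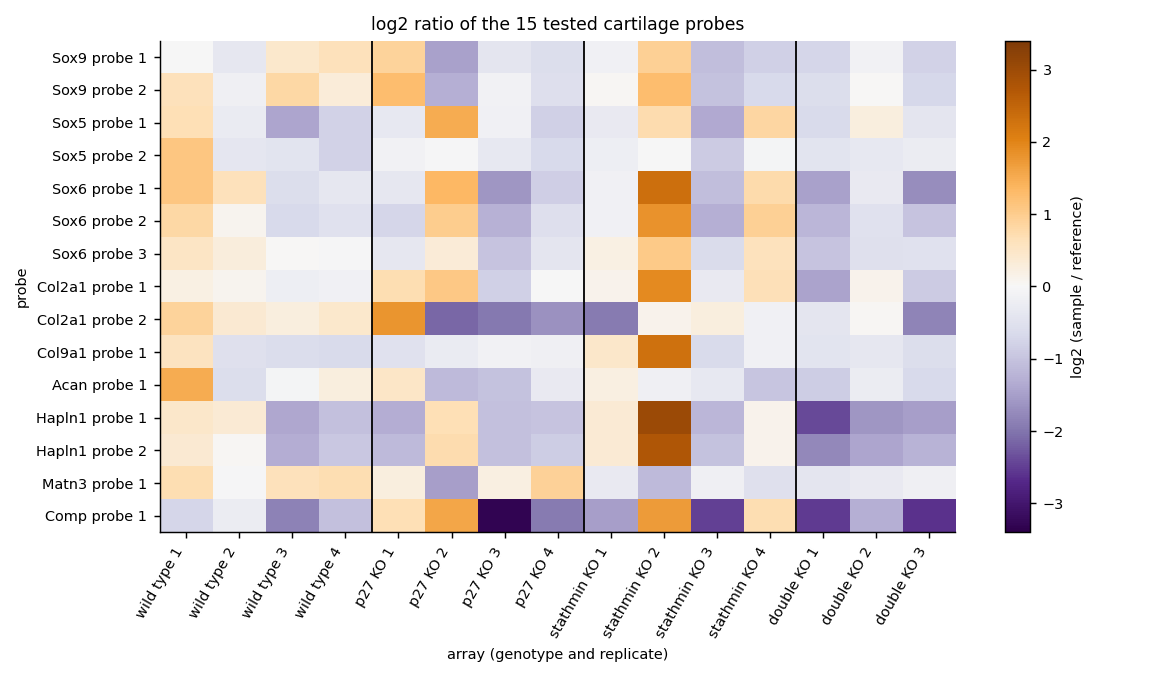
Log2 ratio (colour scale, orange high and purple low) of the 15 tested cartilage probes (rows, by role) on the 15 arrays (columns, by genotype). Stathmin knock-out 2 holds the darkest orange cells, 3.02 for Hapln1 probe 1 among them, wild type 1 is pale orange for most probes, and Col2a1 probes 1 and 2 differ in colour on several arrays.

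Among the transcription factors, Sox9 values of probe 1 were -0.02, -0.35, 0.43 and 0.61 on wild-type replicates 1 to 4 and 0.88, -1.48, -0.41 and -0.58 on the p27 knock-out arrays. They were -0.16, 0.93, -1.07 and -0.80 on the stathmin knock-out arrays and -0.73, -0.11 and -0.79 on the double knock-out arrays. High and low values occurred within both single knock-outs, the 3 double knock-out values were below 0, and all groups overlapped. The second Sox9 probe, which has 10 spots an array, followed the first with a correlation of 0.96 over the 15 arrays, and its spots on an array had an SD of 0.0322 to 0.155 log2 units, far below the spread between arrays of a genotype. Its group means were 0.39 ± 0.43 (SD, n = 4), -0.18 ± 1.07 (n = 4), -0.10 ± 1.01 (n = 4) and -0.42 ± 0.37 (n = 3) for wild type, p27, stathmin and double knock-out.

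Sox6, the SoxD factor that binds DNA beside Sox9 at cartilage genes, had SDs over the 15 arrays of 1.17, 0.95 and 0.59 on its 3 probes, beside 0.71 and 0.78 for the Sox9 probes. Sample signals of the Sox6 probes were 482 to 10200, 264 to 3080 and 121 to 727 units, so the SD fell with brightness among them. The Sox9 probes were brighter at the low end, at 4880 to 26100 and 2070 to 12400 units, and the part of brightness in the SDs was not tested. Its probe 1 read 1.10, 0.63, -0.56 and -0.35 on the wild-type arrays and -0.35, 1.34, -1.59 and -0.82 on the p27 knock-out arrays. It read -0.15, 2.33, -1.09 and 0.75 on the stathmin knock-out arrays and -1.48, -0.30 and -1.71 on the double knock-out arrays. The double knock-out arrays held 2 of the 3 lowest values, yet replicate 2 lay among the wild-type values. The 3 tested Sox6 probes correlated with each other at 0.92 to 0.96. Sox6 probe 3 read 0.52, 0.29, 0.00 and -0.04 in wild type, -0.36, 0.32, -0.99 and -0.40 in p27 knock-out, 0.20, 1.04, -0.61 and 0.59 in stathmin knock-out and -1.01, -0.51 and -0.48 in double knock-out. Probe 2 ranged from -1.29 on stathmin knock-out 3 to 1.81 on stathmin knock-out 2. On probe 3 the double knock-out values all lay below the wild-type values, although only 1 of the 3 double knock-out arrays was well above background.

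Sox5, the close relative of Sox6, read 0.69, -0.27, -1.43 and -0.78 on probe 1 in wild type, -0.34, 1.51, -0.15 and -0.82 in p27 knock-out, -0.31, 0.73, -1.36 and 0.83 in stathmin knock-out and -0.64, 0.25 and -0.42 in double knock-out. The highest value was p27 knock-out 2 and the lowest wild type 3, and every pair of groups overlapped. Probe 2 was closer to background, with a range of -0.89 to 1.10 and a correlation of 0.66 with probe 1; its highest array was wild type 1.

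Upstream sequence is shown for Sox6 and Hapln1, which varied together most closely of the genes with an entry, and for Matn3, which did not follow them. The bases come from RefSeq (GRCm38.p6), end 1 base before an annotated start or before the gene's first base, and have capitals where a SOX motif (ACAAAG or ACAATG, either strand) was found. The Sox6 window lies before an annotated start inside the span of the gene, on chr7:116038745-116038944 (- strand). The Hapln1 window is on chr13:89540436-89540528 (+ strand), and the Matn3 window on chr12:8947729-8947928 (+ strand).
Sox6: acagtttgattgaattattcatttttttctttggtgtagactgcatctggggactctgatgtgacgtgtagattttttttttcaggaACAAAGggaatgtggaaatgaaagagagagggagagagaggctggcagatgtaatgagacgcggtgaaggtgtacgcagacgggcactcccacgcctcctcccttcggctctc
Hapln1: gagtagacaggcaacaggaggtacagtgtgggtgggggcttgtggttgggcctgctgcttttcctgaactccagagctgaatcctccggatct
Matn3: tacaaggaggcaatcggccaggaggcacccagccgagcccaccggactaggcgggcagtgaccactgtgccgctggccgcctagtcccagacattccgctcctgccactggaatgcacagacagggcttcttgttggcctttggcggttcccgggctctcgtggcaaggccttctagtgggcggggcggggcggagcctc
The printed Sox6 window held ACAAAG once, and 5 of the 6 annotated Sox6 starts had either motif within 200 bases. No such letters occurred in the Matn3 window or in the Hapln1 window, which holds 93 bases and not 200 because it ends before the gene's first base. Of all 32851 windows of 200 bases, 20.7% held either motif, so a match in 1 window describes the letters only. Windows were found for 7 of the 10 genes.

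Col2a1 encodes the chain of type II collagen, the main fibril of cartilage, and its 2 tested probes followed each other weakly. Probe 1, with 10 spots, read 0.21, 0.09, -0.21 and -0.15 in wild type, 0.69, 1.07, -0.80 and 0.00 in p27 knock-out, 0.13, 1.91, -0.32 and 0.66 in stathmin knock-out and -1.45, 0.12 and -0.88 in double knock-out. Probe 2 read 0.89, 0.38, 0.24 and 0.43 in wild type, 1.79, -2.14, -1.96 and -1.66 in p27 knock-out, -1.93, 0.13, 0.26 and -0.15 in stathmin knock-out and -0.41, 0.04 and -1.83 in double knock-out. On 7 of the 15 arrays the probes differed by more than 1 log2 unit, and on 6 they lay on opposite sides of 0. Array p27 knock-out 2, for example, was second highest on probe 1 and lowest on probe 2. Their correlation was 0.22 (rho 0.17) over the 15 arrays, and 0.24 without the 2 arrays farthest from the median of probe 1. It was 0.47 over the 12 arrays off slide 2 and 0.31 for deviations from the genotype means. Both carry the accession of the Col2a1 transcript in the files, and which of them reads Col2a1 alone was not tested. The spots of probe 1 on an array had an SD of 0.0364 to 0.158 log2 units, and probe 2 has 1 spot an array, so its spot noise was not measured.

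The likeness of the 2 Col2a1 probes to other genes differed as well. Over the 15 arrays the genes most like probe 1 were Col6a1 (r 0.95), a chain of type VI collagen, Lyzl4 (r 0.95) and Col3a1 (r 0.95), the fibrillar collagen of loose connective tissue. Those most like probe 2 were Tmeff2 (r 0.86) and Foxd1 (r 0.84), and Sox9 followed probe 2 at 0.60 and probe 1 at 0.33. These correlations describe arrays that share a reference and 4 slides, and carry no test. Col9a1, a chain of type IX collagen on the surface of the type II fibril, read 0.57, -0.51, -0.60 and -0.66 in wild type, -0.48, -0.27, -0.12 and -0.18 in p27 knock-out, 0.46, 2.29, -0.66 and -0.14 in stathmin knock-out and -0.43, -0.36 and -0.58 in double knock-out. A single array, stathmin knock-out 2, lay above 1, and the p27 and double knock-out values were all within -0.12 and -0.58. The gene pair Col9a1 and Col9a2 correlated at 0.85 over all arrays and at 0.38 without stathmin knock-out 2 and wild type 1.

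Hapln1, the link protein, read highest on stathmin knock-out 2. Probe 1 read 0.45, 0.35, -1.40 and -1.05 on the wild-type arrays and -1.32, 0.67, -1.06 and -1.01 on the p27 knock-out arrays. It read 0.36, 3.02, -1.18 and 0.11 on the stathmin knock-out arrays and -2.41, -1.61 and -1.50 on the double knock-out arrays. Every double knock-out value lay below every value of the other 3 genotypes, although double knock-out 1, the lowest, was not well above background. Probe 2 followed probe 1 at 0.99, with group means of -0.46 ± 0.80 (n = 4), -0.58 ± 0.88 (n = 4), 0.56 ± 1.58 (n = 4) and -1.47 ± 0.26 (n = 3) in the same order, and 1 of 3 double knock-out arrays well above background. On probe 2 the double knock-out and wild-type arrays overlapped, with double knock-out 3 at -1.24 and wild type 3 at -1.32.

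Acan, the aggrecan core protein, read 1.50, -0.57, -0.07 and 0.25 in wild type, 0.49, -1.13, -1.01 and -0.30 in p27 knock-out, 0.24, -0.17, -0.34 and -0.97 in stathmin knock-out and -0.87, -0.25 and -0.68 in double knock-out. Wild type 1 was the highest array by a wide margin, the double knock-out values were all below 0, and all groups overlapped. Acan followed Sox9 probe 1 at 0.61 (rho 0.80), and at 0.72 without the 2 arrays farthest from its median; it followed Sox6 probe 1 at 0.23.

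Matn3, a matrilin of growth plate cartilage, did not follow Hapln1 or Comp. It read 0.71, -0.03, 0.61 and 0.71 in wild type and 0.24, -1.51, 0.24 and 0.91 in p27 knock-out. It read -0.31, -1.12, -0.18 and -0.51 in stathmin knock-out and -0.40, -0.31 and -0.16 in double knock-out. Every array without stathmin lay below every wild-type array, and the p27 knock-out arrays held both the highest value and the lowest, that of p27 knock-out 2, which was not well above background. Matn3 had negative correlations with Hapln1 probe 1 (-0.47) and Comp (-0.52) over the 15 arrays, which were 0.06 and -0.03 without p27 knock-out 2 and stathmin knock-out 2, so the negative relation rests on those arrays. With Acan it correlated at 0.53, at 0.52 off slide 2 and at 0.27 without wild type 1 and p27 knock-out 2. With Sox9 probe 1 it correlated at 0.34, at 0.50 off slide 2 and at 0.19 without p27 knock-out 2 and 4. The genes most like Matn3 were Pold3 (r 0.90, 0.89 without p27 knock-out 2 and 4), a subunit of DNA polymerase delta, H2az1 (r 0.89, 0.81 without p27 knock-out 2 and 4), a histone variant, and Sass6 (r 0.89, 0.81 without p27 knock-out 2 and 4), a protein of centriole assembly.

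Comp read -0.73, -0.24, -1.85 and -1.04 on the wild-type arrays and 0.68, 1.59, -3.30 and -1.93 on the p27 knock-out arrays. It read -1.50, 1.71, -2.48 and 0.70 on the stathmin knock-out arrays and -2.54, -1.30 and -2.62 on the double knock-out arrays. Both single knock-outs held values from below the lowest wild-type array to above the highest one. The genes most like Comp were Penk (r 0.93), Adgrg2 (r 0.93) and Cavin1 (r 0.93).

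Likeness among Hapln1, Sox6, Comp and probe 1 of Col2a1 differed by pair. Over the 15 arrays Hapln1 probe 1 and Sox6 probe 1 correlated at 0.89 (rho 0.78), and Comp and Sox6 probe 1 at 0.89 (rho 0.93). Without stathmin knock-out 2 and p27 knock-out 2, the farthest arrays, these were 0.79 and 0.81, and over the 12 arrays off slide 2 they were 0.75 and 0.79. Deviations from the genotype means correlated at 0.87 and 0.90. Col2a1 probe 1 and Comp correlated at 0.91, and at 0.86 off slide 2. Comp and Hapln1 probe 1 correlated at 0.71, but at 0.50 without the 2 arrays farthest from the median and 0.44 off slide 2. Col2a1 probe 1 and Hapln1 probe 1 correlated at 0.82, at 0.56 without stathmin knock-out 2 and double knock-out 1, and at 0.62 off slide 2. Sox9 probe 1 correlated with Hapln1, Sox6 and Comp at 0.20 (Hapln1 probe 1), 0.24 (Sox6 probe 1) and 0.24 (Comp). A slide holds 3 or 4 arrays, too few for a correlation within it.

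**Figure D3:**
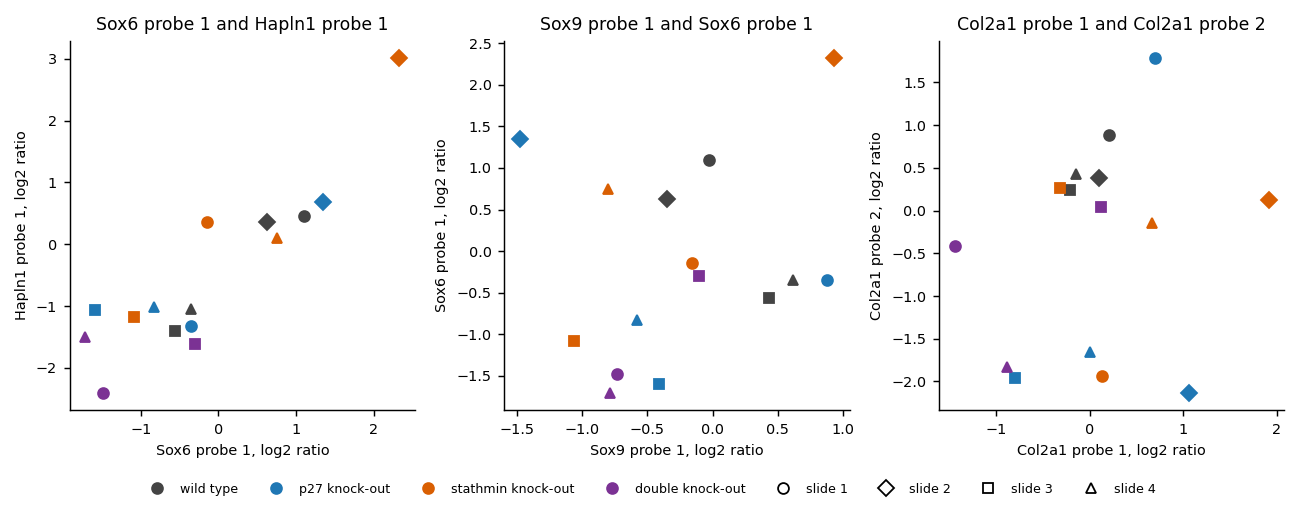
Log2 ratios of 2 probes on each of the 15 arrays (points, coloured by genotype and shaped by slide): Hapln1 against Sox6, Sox6 against Sox9, and the 2 Col2a1 probes. The first pair follows a line (r 0.89), while Sox6 against Sox9 (r 0.24) and the Col2a1 probes (r 0.22) scatter.

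Slide was set against these values because p27 knock-out 2 and stathmin knock-out 2, both on slide 2, were the highest arrays of their genotypes for Hapln1, Comp and Sox6. With genotype in the fit, slide 2 minus the mean of the other slides was 2.03 (SE 0.47; limma, adjusted p = 0.172) for Hapln1 probe 1, 1.77 (SE 0.52; limma, adjusted p = 0.193) for Sox6 probe 1 and 2.29 (SE 0.78; limma, adjusted p = 0.225) for Comp. For Matn3 it was -1.16 (SE 0.23; limma, adjusted p = 0.172), the opposite direction and with the dim p27 knock-out 2 value included, and for Sox9 probe 1 it was -0.17 (SE 0.50; limma, adjusted p = 0.91). Over all tested probes 15.3% had an unadjusted p under 0.05 for slide 2, and 0% passed after adjustment. For slide 1 against the other slides 16% had an unadjusted p under 0.05 and 0.921% passed, with 0 of 15 cartilage probes among them. This term was added after the values were seen, and slide and replicate number coincide for all genotypes but the double knock-out.

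For loss of p27 alone, 0 of 15 cartilage probes passed after adjustment, as did 0% of all 27669 probes tested, and no cartilage probe had an unadjusted p under 0.05 (5.84% of all probes) or groups that did not overlap (2.23% of all probes). Differences lay below 0 for 11 of the 15 probes, beside 50.3% of all probes. Of the 9 genes, by their brightest probe, 4 were above 0 and 5 below, with a median difference of -0.27 log2 units beside 0.01 for all tested genes. The lowest differences were -1.48 for Col2a1 probe 2 and -0.77 for Acan, and the highest was 0.50 for Sox5 probe 1. Single arrays moved each of these. Col2a1 probe 2 gave -2.40 without p27 knock-out 1, and Acan gave -0.36 without wild type 1. Sox5 probe 1 gave 0.01 without p27 knock-out 2, 0.17 without wild type 3, 0.88 without wild type 1 and 0.79 without p27 knock-out 4. Within slides 1 to 4 Acan gave -1.01, -0.57, -0.94 and -0.55, below 0 on each. The interval for Hapln1 probe 1, -1.89 to 1.35, covers differences of either sign. The median of the 9 genes was 0.02 without wild type 1, -0.03 without wild type 2, -0.48 without wild type 3 and -0.42 without wild type 4. Without p27 knock-out 3 or 4 it was -0.14 or -0.16.

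For loss of stathmin alone, 0 of 15 cartilage probes passed, beside 0.00723% of all probes. Matn3 was the 1 cartilage probe with an unadjusted p under 0.05 (4.84% of all probes) and the 1 whose groups did not overlap (3% of all probes, and 1.67% in the lower direction). Its difference was -1.03 (SE 0.40, 95% interval -1.89 to -0.16; limma, adjusted p = 0.916). Within slides 1 to 4 it was -1.02, -1.08, -0.79 and -1.22, where groups that do not overlap must give the same sign on every slide. Without stathmin knock-out 2 it was -0.83. Differences lay below 0 for 6 of the 15 probes, beside 49.7% of all probes. Of the 9 genes, 6 had differences above 0 and 3 below (median 0.42), but without stathmin knock-out 2 the counts were 4 and 5 (median -0.13). Of the 18 other cartilage matrix genes 16 were above 0 (median 0.52), and 14 without that array (median 0.06).

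In the double knock-out against wild type, 0 of 15 cartilage probes passed, beside 0.00361% of all probes. The differences of 14 of the 15 probes were below 0, as were 51.2% of all probes, and 8 of the 9 genes lay below 0, with a median of -0.79 beside -0.0034 for all tested genes. For 4 of 15 probes every double knock-out array lay below every wild-type array, which 3.4% of all probes did (6.3% in either direction): Hapln1 probe 1, Sox6 probe 3, Col2a1 probe 2 and Matn3. Probes of 1 gene and genes that vary together are not independent, and the share of all probes is no test of the list. Sox6 probe 3 differed by -0.86 (SE 0.35, 95% interval -1.62 to -0.09; limma, adjusted p = 1), the 1 cartilage probe with an unadjusted p under 0.05, as 2.26% of all probes had. With the scanner software's log ratio it was -2.35.

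The other 3 probes had intervals that include 0. Hapln1 probe 1 differed by -1.43 (SE 0.81, 95% interval -3.18 to 0.32; limma, adjusted p = 1). Within slides 1, 3 and 4 its difference was -2.86, -0.21 and -0.45, so slide 1 gave most of it, and with slide as a block it was -0.92. It was -0.76 with array weights and -2.19 with the scanner software's log ratio. Matn3 differed by -0.79 (SE 0.43, 95% interval -1.72 to 0.14; limma, adjusted p = 1), with -1.11, -0.92 and -0.87 within the same slides. Col2a1 probe 2 differed by -1.22 (SE 0.83, 95% interval -3.00 to 0.57; limma, adjusted p = 1), and by -0.67 without double knock-out 3. For Sox6 probe 3 the values within slides were -1.52, -0.51 and -0.44. The double knock-out list means of the 9 genes, -1.22, -0.43 and -1.04, overlapped with the wild-type means of 0.50, -0.10, -0.56 and -0.27. The 18 other cartilage matrix genes had 15 below 0 and a median of -0.12.

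**Figure D4:**
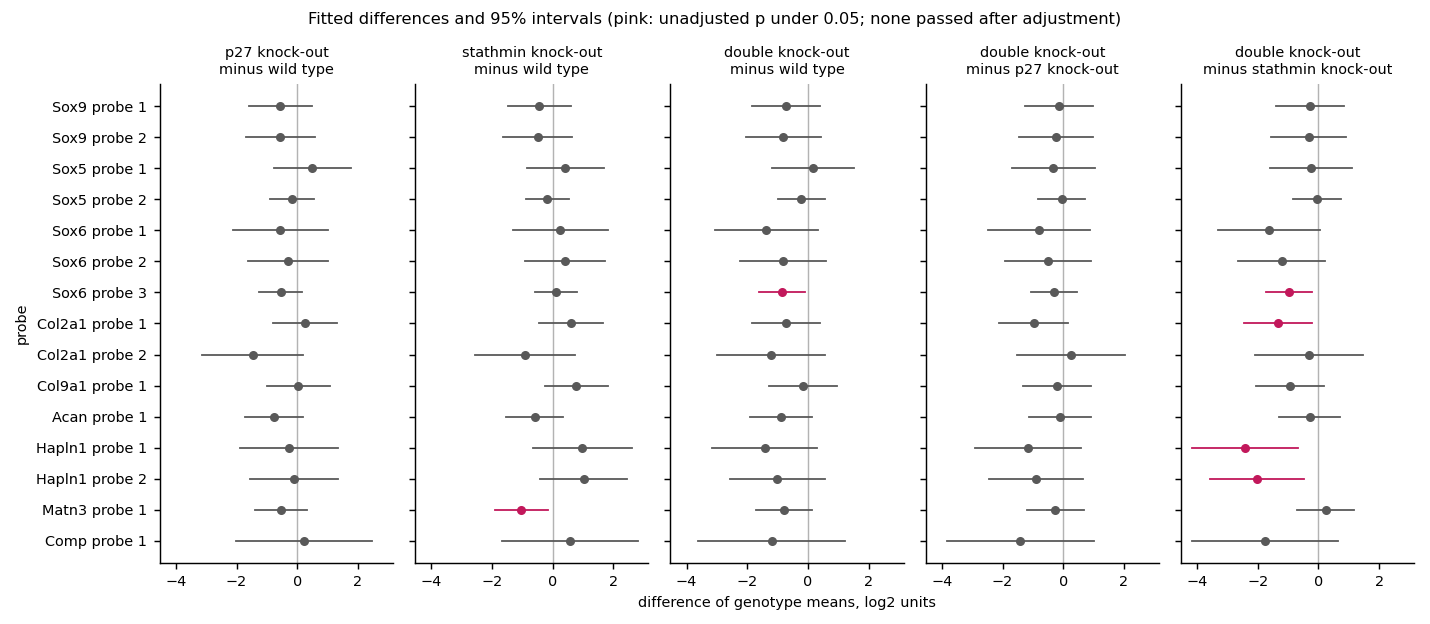
Difference of genotype means (horizontal axis, log2 units) with its 95% interval from limma for the 15 tested cartilage probes (rows) in 5 comparisons (panels). The points of the double knock-out panels lie mostly left of 0, and the intervals drawn in pink (unadjusted p under 0.05) belong to Matn3, Sox6 probe 3, Col2a1 probe 1 and the 2 Hapln1 probes.

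The double knock-out was then compared with each single knock-out, comparisons that share its 3 arrays with each other and with the one against wild type. Against p27 knock-out, 0 of 15 probes passed, beside 0.00361% of all probes, and none had an unadjusted p under 0.05 (2.89% of all probes). Both Hapln1 probes had double knock-out arrays below all p27 knock-out arrays, as 1.59% of all probes did (3.15% in either direction). The Hapln1 differences were -1.16 (SE 0.81, 95% interval -2.91 to 0.59; limma, adjusted p = 1) for probe 1 and -0.89 (SE 0.72, 95% interval -2.45 to 0.66; limma, adjusted p = 1) for probe 2. Without p27 knock-out 2 they were -0.71 and -0.46, with slide as a block -0.65 and -0.45, and with the scanner software's log ratio -1.92 and -1.86. On the deposited value table probe 2 gave -1.36, and within slides 1, 3 and 4 probe 1 gave -1.08, -0.56 and -0.49. Differences lay below 0 for 14 of the 15 probes, beside 49.8% of all probes. All 9 genes were lower in the double knock-out (median -0.32), and 8 of 9 without p27 knock-out 2 (median -0.50).

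Against stathmin knock-out, 0 of 15 probes passed, as did 0% of all probes, and 4 cartilage probes of 3 genes had an unadjusted p under 0.05, as 3.55% of all probes did. All 4 were lower in the double knock-out. Hapln1 probe 1 differed by -2.42 (SE 0.81, 95% interval -4.16 to -0.67; limma, adjusted p = 1) and probe 2 by -2.03 (SE 0.72, 95% interval -3.59 to -0.47; limma, adjusted p = 1), with groups that did not overlap on either probe, as for 2.64% of all probes in that direction and 4.87% in either. Without stathmin knock-out 2 these differences were -1.60 and -1.30, and within slides 1, 3 and 4 probe 1 gave -2.77, -0.44 and -1.60. With the scanner software's log ratio Hapln1 probe 2 gave -3.22 and Sox6 probe 3 -2.44. Sox6 probe 3 differed by -0.97 (SE 0.35, 95% interval -1.73 to -0.21; limma, adjusted p = 1), with -1.21, 0.11 and -1.07 within the slides, above 0 on slide 3. Col2a1 probe 1 differed by -1.33 (SE 0.53, 95% interval -2.46 to -0.20; limma, adjusted p = 1), with -1.58, 0.44 and -1.54 within the slides, whereas Col2a1 probe 2 gave -0.31.

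Differences lay below 0 for 14 of the 15 probes, beside 49.8% of all probes. Of the 9 genes, 8 were lower in the double than in the stathmin knock-out (median -0.94), and 6 without stathmin knock-out 2 (median -0.34). All 18 other cartilage matrix genes tested were lower (median -0.54), and 13 without that array (median -0.22). Matn3 was the exception among the 9 genes at 0.24, its level in stathmin and double knock-out lying at -0.53 ± 0.42 (SD, n = 4) and -0.29 ± 0.12 (n = 3).

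**Figure D5:**
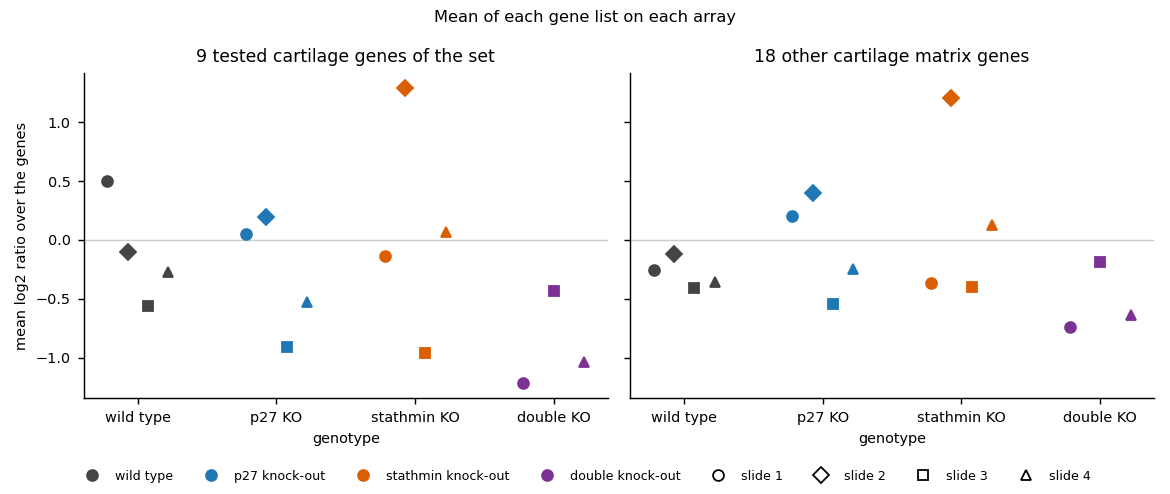
Mean log2 ratio (vertical axis) of the 9 tested cartilage genes (left) and of 18 other cartilage matrix genes (right) on each array, by genotype, with point shapes for slides. Stathmin knock-out 2 is the highest array in both panels, at 1.29 and 1.21, and the 3 double knock-out arrays lie at or below -0.43 on the left.

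The interaction asked whether the double knock-out differed from the sum of the single ones. No cartilage probe passed, as did 0% of all probes, and 1 of 15 had an unadjusted p under 0.05 beside 7.3% of all probes. That probe, Col2a1 probe 1, gave -1.59 (SE 0.72, 95% interval -3.13 to -0.04; limma, adjusted p = 0.682), with -1.04 from the sample channel alone and -0.87 when p27 knock-out 2 and stathmin knock-out 2 were left out. Col2a1 probe 2 gave 1.16, the opposite sign. Hapln1 gave -2.15 and -1.92 on its 2 probes, and Comp -1.99. Without stathmin knock-out 2 these were -1.33, -1.18 and -1.28, and without both slide 2 knock-out arrays -0.88, -0.75 and -0.51. Without p27 knock-out 2 alone Comp gave -1.21. Values lay below 0 for 9 of the 15 probes, beside 50.2% of all probes.

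Genes with related roles gave none that passed after adjustment in any comparison. On the list of 16 chondrogenic regulators, 14 were tested. For loss of stathmin 7 of these lay above 0 and 7 below (median -0.06), as for loss of p27 (median -0.01). For double minus stathmin knock-out 6 lay above 0 and 8 below (median -0.15). The genes named here had an unadjusted p under 0.05 in the comparison given. Runx3, a Runt factor of chondrocyte maturation, was higher in stathmin knock-out than in wild type by 1.31 (SE 0.36; limma, adjusted p = 0.916), with groups that did not overlap, and its difference of double from stathmin knock-out was -0.90 (SE 0.39; limma, adjusted p = 1), and -0.58 without stathmin knock-out 2. Pthlh, the secreted brake on chondrocyte maturation, differed between p27 knock-out and wild type by -0.89 (SE 0.31; limma, adjusted p = 0.797). Gdf5, a joint factor of the BMP family, differed between double and stathmin knock-out by -0.69 (SE 0.31; limma, adjusted p = 1). Of 22 other cartilage matrix genes 18 were tested. The small proteoglycans Fmod and Prelp differed between double and p27 knock-out by -1.60 (SE 0.52; limma, adjusted p = 1) and -1.75 (SE 0.70; limma, adjusted p = 1), and Epyc, another of them, had an interaction of -2.69 (SE 1.11; limma, adjusted p = 0.682). Prelp gave -1.13 without p27 knock-out 2, and Epyc -1.32 without both slide 2 knock-out arrays.

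All 12 listed genes of chondroitin sulphate synthesis were tested. For loss of stathmin 6 lay above 0 and 6 below (median -0.02), and for loss of p27 4 and 8 (median -0.22). Their interactions lay above 0 for 4 and below for 8 (median -0.05). Csgalnact1, which helps start the chondroitin chain, gave a stathmin knock-out difference of 0.82 (SE 0.25; limma, adjusted p = 0.916), and its interaction was -1.29 (SE 0.37; limma, adjusted p = 0.682). Ust, a uronyl sulphotransferase, gave -0.70 (SE 0.24; limma, adjusted p = 0.797) for loss of p27. Of 13 genes of hypertrophic cartilage and bone 11 were tested. For loss of p27 6 of these lay above 0 and 5 below (median 0.05). The counts for loss of both genes were also 6 and 5 (median 0.05). Runx2, the master factor of osteoblasts, gave -0.66 (SE 0.26; limma, adjusted p = 0.797) for loss of p27 and -0.74 (SE 0.28; limma, adjusted p = 1) for loss of both genes. Of 9 tendon and ligament genes 7 were tested, and none had an unadjusted p under 0.05 by brightest probe in any comparison. Their mean was -0.40 to 0.05 on the wild-type arrays, -0.79 to -0.10 in p27 knock-out and -0.70 to 0.09 in stathmin knock-out. It was -0.80 to -0.43 in double knock-out, where every array lay below the wild-type arrays. Thbs4 weighed heavily in that mean, with -4.16, -3.11 and -3.05 on the double knock-out arrays beside -2.19 to -0.57 in wild type. Tnc read 1.53, 0.08 and 0.90 beside -0.45 to 0.53. For double knock-out minus wild type 3 of these genes lay above 0 and 4 below (median -0.19). The part of the tendon genes in the cartilage values was not tested.

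Markers of other cell types also spread widely over the same arrays, and their part in the cartilage values was not tested. The 9 tested epithelial markers of 12 averaged 0.07 to 0.49 on the wild-type arrays, -0.94 to 0.10 in p27 knock-out, -0.68 to -0.13 in stathmin knock-out and -0.50 to -0.27 in double knock-out. Krt7, a keratin of simple epithelia, differed from wild type by -1.78 (SE 0.31; limma, adjusted p = 0.234) in stathmin knock-out and by -2.02 (SE 0.33; limma, adjusted p = 0.291) in double knock-out. The 12 macrophage and blood markers averaged -1.80 to -0.55 in wild type, -2.78 to 2.17 in p27 knock-out, -1.70 to -0.91 in stathmin knock-out and -2.34 to 1.30 in double knock-out. The 14 fibroblast markers averaged -0.13 to 0.30 in wild type, 0.33 to 1.06 in p27 knock-out, 0.14 to 0.94 in stathmin knock-out and -0.07 to 0.27 in double knock-out. The 7 tested of 10 skeletal muscle markers averaged 0.11 to 0.46 in wild type, -1.10 to 0.69 in p27 knock-out, -0.54 to -0.27 in stathmin knock-out and -0.16 to 0.33 in double knock-out, with every stathmin knock-out array below the wild-type arrays. The 9 tested of 12 neuronal and glial markers averaged -0.15 to 0.19 in wild type, -0.23 to -0.20 in p27 knock-out, -0.41 to -0.10 in stathmin knock-out and -0.36 to -0.19 in double knock-out, with the p27 and double knock-out arrays below the wild-type arrays. The 7 tested of 10 endothelial markers averaged -0.22 to 0.20, -0.73 to 0.23, -0.52 to -0.07 and -0.48 to -0.14 in the same order of genotypes.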

How the data were processed

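Arrays were 2-colour Agilent whole mouse genome arrays scanned with Feature Extraction 9.1.3.1. The deposited intensity values are mean spot signals and local backgrounds without background subtraction, per the file headers. The log10 ratio deposited beside them was dye-normalised by the scanner software, per the file headers, and the authors' deposited table holds log2 ratios whose normalization is not given in the sources used here. Intensities were corrected with normexp (offset 50), normalised by loess within each array and averaged over spots of a probe, leaving out outlier spots. All 15 arrays entered 1 limma 3.58.1 fit in R 4.3.3 that gave each genotype its mean and left 11 residual degrees of freedom. Tests were two-sided, with Benjamini-Hochberg adjustment over all tested probes and a threshold of 0.05. Precision is limited by how many arrays there are.

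The members and lists were chosen with earlier results of these data known. Each member's test is printed where its unadjusted p was under 0.05 or its groups did not overlap. From each other list at most 3 genes with an unadjusted p under 0.05 were named by smallest p, and from all genes the 3 most correlated with each member were considered. The fibroblast, neuronal and glial, skeletal muscle and endothelial lists also held genes with such a p, whose tests are not printed. Of the epithelial list only Krt7 is printed, though others had such a p. The scripts were tested on simulated data.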

Additional observations from a re-analysis of the deposited data

Results flagged for a closer look

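In 5 of the 45 sets of 4 arrays (1 probe in 1 genotype) examined for a lone value, 1 array lay far from the other 3 by Dixon's criterion, which chance alone meets in about 1 set in 20. Col2a1 probe 2 read 1.79 on p27 knock-out 1, while the other p27 knock-out arrays lay between -2.14 and -1.66. Col9a1 read 0.57 on wild type 1, beside -0.66 to -0.51 on the other wild-type arrays. Hapln1 read 0.67 on probe 1 and 0.73 on probe 2 on p27 knock-out 2, with the other arrays of that genotype at -1.32 to -1.01 and -1.12 to -0.87. Matn3 read -0.035 on wild type 2, below the 0.61 to 0.71 of the other wild-type arrays. Both Hapln1 probes read the same RNA, and p27 knock-out 2 and wild type 2 were on slide 2.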

How the results depend on the processing

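No cartilage probe passed in any of the 6 comparisons under any of the 17 alternatives or with any 1 array left out, and none of the 381 recomputed differences that were named changed sign. The count over all probes did move. For double knock-out minus wild type it was 1, and 2 with the scanner software's log ratio, the deposited table, the replicate block, the slide block or slide as a random block, 0 with 1 probe a gene or with trend and robust variance, and 23 with array weights. For double minus p27 knock-out it was 1, and 2 with the same 5 alternatives and array weights, and 0 with 1 probe a gene, with trend and robust variance or with the compared genotypes alone. For stathmin knock-out minus wild type it was 2, and 1 with 1 probe a gene, the compared genotypes alone, the sample channel alone or both slide 2 knock-out arrays left out, and 13 with array weights. Array weights gave 1 for double minus stathmin knock-out and 2 for the interaction, both 0 otherwise. Leaving out 1 array at a time gave 1 to 2, 1 to 2, 1 to 3, 0 to 1 and 0 to 1 in that order. The cause of these shifts was not tested. The main fit did not pair samples by replicate number. Correlations of same-numbered arrays' deviations ran from -0.26 to 0.42, and 12 of 21 were over 0.1. Whether replicate numbers pair the samples was not tested. The alternative without p27 knock-out 2 and stathmin knock-out 2, the slide term, the list genes with arrays left out, the spread within genotypes, the ranges over arrays above background and the correlation checks were chosen after seeing the data. Dim signals limit Hapln1, Col9a1 and Sox6 probe 3 in the double knock-out, Matn3 on p27 knock-out 2, Col9a1 on wild type 4 and Sox5 probe 2 on 3 arrays.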
